A study of Mus musculus with 36 samples.

Results

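The enzymes that build long polyunsaturated fatty acids from dietary precursors, and 3 related elongases, were followed in the livers of 36 male C57BL/6 mice (C57BL/6J in the study's methods), 3 at each of 12 ages. The genes were taken by symbol from the deposited table, and all 7 symbols (Fads1, Fads2, Elovl1, Elovl2, Elovl3, Elovl5 and Elovl7) were present among its 21889 symbols. The ages were Day -2 (before birth), Day 0 (right after birth, before suckling), Days 1, 3, 5, 10, 15 and 20 (suckling) and Days 25, 30, 45 and 60 (after weaning at 21 days of age). The labels name no treatment and no engineered allele, and the mice had been drawn at random from multiple litters, so the groups differ in age and in what comes with it: the supply of nutrients (through the placenta, then milk, then solid food) and the collection time, which was set by the birth at Days 0 and 1 and was in the morning from Day 3 on. The liver is a mixture of cells, and in such samples fewer cells of a type and less RNA per cell cannot be told apart.

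Linoleic and alpha-linolenic acid cannot be made by mammals and must come from the diet. In the endoplasmic reticulum of hepatocytes, delta-6 desaturase (Fads2) and then delta-5 desaturase (Fads1) introduce double bonds into these precursors. Elovl5 lengthens the chain between these desaturation steps, which leads to arachidonic acid. Elovl2 lengthens the longer chains after them, and with a round of peroxisomal shortening this leads to docosahexaenoic acid. The remaining elongases are known mainly for other substrates: Elovl1 and Elovl3 act on saturated and monounsaturated long and very long chains, and Elovl7 is a less studied elongase of long chains, so the name of polyunsaturated fatty acid enzymes fits Fads1, Fads2, Elovl2 and Elovl5 best. Messenger RNA abundance was measured by RNA-Seq of polyadenylated RNA and is given in FPKM (fragments per kilobase of transcript per 1000000 mapped fragments), a measure already divided by transcript length.

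In the build used by the authors (NCBI37/mm9), Fads1 (ENSMUSG00000010663.4) lies on chromosome 19 from 10257378 to 10271360 on the plus strand, and Fads2 (ENSMUSG00000024665.7) lies beside it, from 10138654 to 10175993 on the minus strand. The genes lie head to head, with a gap of 81384 bases between them. Elovl3 is on the same chromosome, from 46206387 to 46210184. Elovl2 (41277864 to 41315774) and Elovl7 (109004598 to 109077299) are both on chromosome 13, Elovl1 is on chromosome 4 (118100698 to 118105558), and Elovl5 is on chromosome 9 (77765171 to 77832326). All are annotated as protein coding.

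The size of the libraries was known only loosely. From the steps between low FPKM values their depth was estimated at 72.7 to 106.9 fragments in units of 1000000. The search was held to a fixed range of depths, so the estimate cannot show that the libraries were of similar size. It is loose because only 39.6% of the low values (median of the libraries) lay within 0.1 fragment of a whole number, against 20% for values spread evenly. In mouse 1 of Day 30, estimated at 102.8, the share was 23.9%. Summed FPKM, which is already scaled to depth, was 353712 to 450597 per mouse. In 6 libraries the summed markers of exocrine pancreas (Ctrb1, Prss2, Cpa1, Cela1 and Pnlip) exceeded 1000 FPKM or those of skeletal muscle exceeded 500 FPKM: Day 0 mice 1 and 3, Day 15 mouse 3, Day 20 mouse 2, Day 45 mouse 1 and Day 60 mouse 1. The highest pancreatic sum was 14241 FPKM, in mouse 1 of Day 60. Calls on single genes that changed without these 6 libraries are given, and the 2 ratio tests are given with them only. Libraries under both limits held pancreatic RNA too, up to 999 FPKM in mouse 1 of Day 10, so leaving out the 6 does not remove all of it. Hepatocyte markers (Alb, Ttr, Apoa1 and 4 others) summed to 7765 FPKM or more in every mouse.

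**Figure D1:**
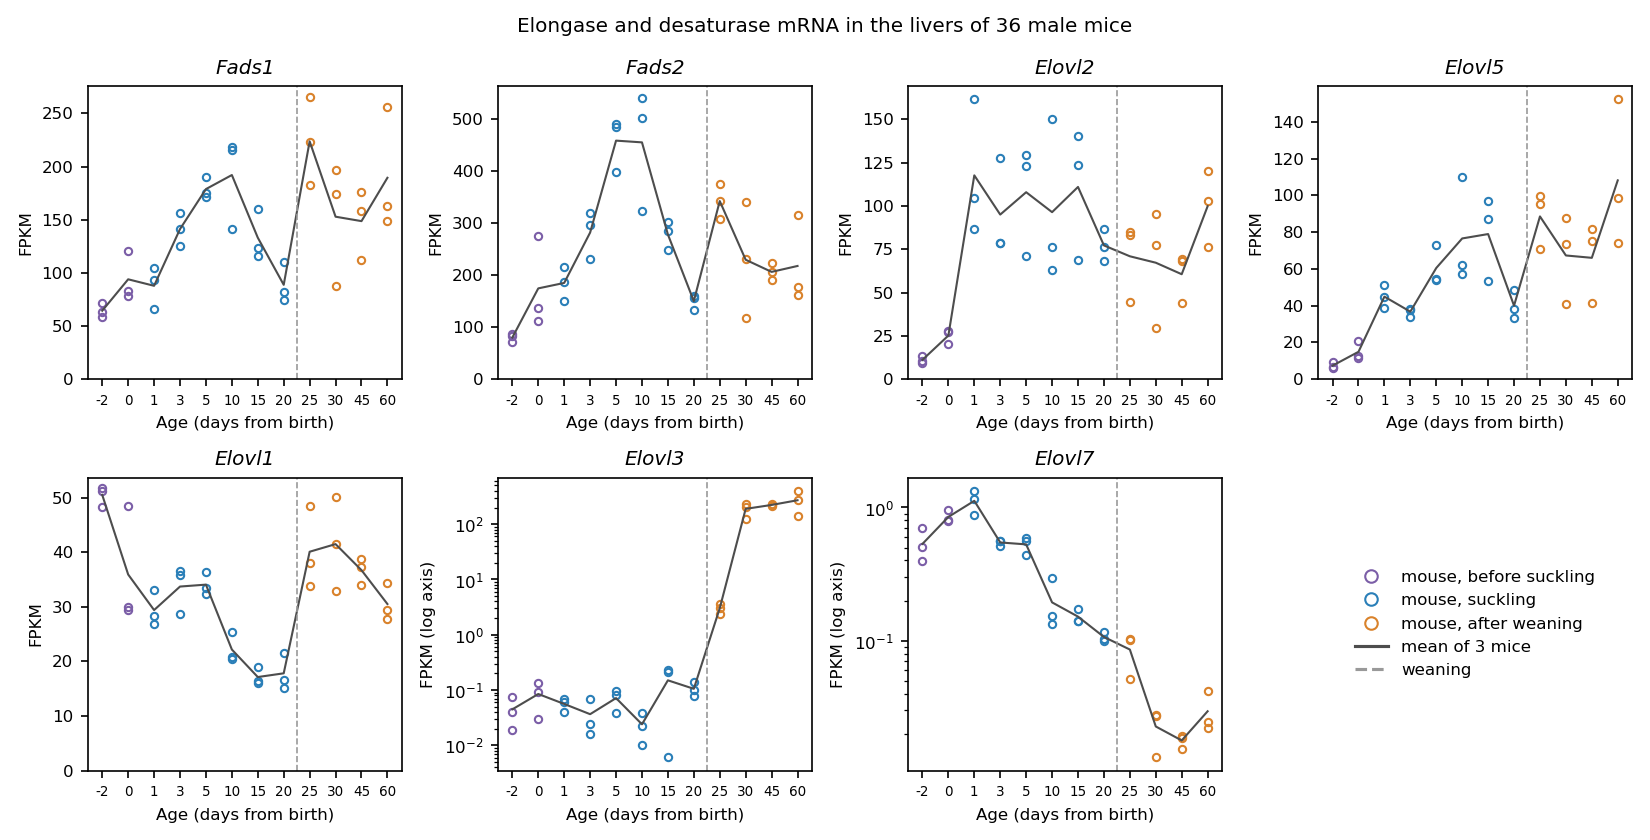
FPKM of the 7 genes (panels) in each of 36 mice (open circles, coloured by period) against age in days from birth, with the mean of 3 mice as a line and weaning as a dashed line; the axes are linear from 0 except for Elovl3 and Elovl7, which are logarithmic. Fads1, Fads2, Elovl1 and Elovl5 stand higher at Day 25 than at Day 20, Elovl2 does not, and Elovl3 is at most 0.232 FPKM in any mouse until Day 20 and between 126 and 400 FPKM from Day 30.

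Desaturase mRNAs were low before birth, high around Days 5 and 10, lower at Day 20 and high again at Day 25. Fads2, the first desaturase of the pathway, measured 86.4, 82.8 and 70.5 FPKM in the 3 mice of Day -2 and 491, 485 and 399 FPKM in those of Day 5. These ages did not overlap, and their means, 79.9 ± 8.33 and 458 ± 51.8 FPKM (SD, n = 3), were the lowest and the highest of the 12, a 5.74-fold range. At Day 20 Fads2 was at 161, 133 and 156 FPKM, below every mouse of Days 3 to 15. The adjacent levels in the order of the 12 age means overlapped between mice in all cases but that of Day 20 and Day -2.

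Fads1, which acts after Fads2, moved over a narrower range. It measured 71.5, 62.9 and 58.6 FPKM at Day -2, where its mean was lowest (64.3 ± 6.57 FPKM, SD, n = 3). It had 190, 175 and 171 FPKM at Day 5 and 219, 216 and 141 FPKM at Day 10. At Day 20 the mice had 110, 74.4 and 81.5 FPKM. The highest mean was that of Day 25, 223.8 ± 41.2 FPKM, 3.48-fold the lowest, but no pair of neighbours in the order of its 12 age means was free of overlap between mice.

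Both polyunsaturated fatty acid elongases were scarce before birth and abundant from the first day of suckling. Elovl2, which lengthens the longer polyunsaturated chains on the way to docosahexaenoic acid, measured 13.6, 9.07 and 10.7 FPKM at Day -2, 27.9, 27 and 20.5 FPKM at Day 0 and 162, 104 and 87.0 FPKM at Day 1. The 3 ages did not overlap. Its highest mean was at Day 1 (118 ± 39.1 FPKM, SD, n = 3), 10.6-fold that of Day -2, and from Day 1 to Day 60 age means stayed between 60.6 and 118 FPKM, with every pair of neighbours in their order overlapping.

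Elovl5, which lengthens the shorter polyunsaturated chains after the first desaturation, had 9.33, 6.26 and 6.33 FPKM at Day -2, 20.7, 12.4 and 11.4 FPKM at Day 0, and 51.1, 44.6 and 38.9 FPKM at Day 1. As for Elovl2, these ages did not overlap. Unlike Elovl2, its highest mean came last, at Day 60 (108 ± 40.1 FPKM, SD, n = 3), 14.8-fold the mean of Day -2, and it had a dip at Day 20, when the mice had 48.6, 38.1 and 33.2 FPKM. The Day 60 mean rested on unequal mice, at 73.9, 98.4 and 152 FPKM.

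The remaining elongases followed 3 separate courses. Elovl1, an elongase of saturated and monounsaturated very long chains, was highest at Day -2, with 51.9, 51.3 and 48.3 FPKM, and lowest at Day 15, with 16, 16.5 and 19 FPKM. Day -2 stood above each of the suckling ages, whose highest mouse had 36.6 FPKM.

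Elovl3, an elongase of saturated and monounsaturated chains, was barely detected in the fetal and suckling liver. None of the 24 mice up to Day 20 exceeded 0.232 FPKM, a level of about 1 to 35 fragments per mouse at the estimated depth. At Day 25, 4 days after weaning, the mice had 2.37, 3.59 and 3.10 FPKM. At Day 30 they had 208, 126 and 234 FPKM, at Day 45 they had 222, 210 and 236 FPKM, and at Day 60 they had 400, 271 and 140 FPKM. Day 25 overlapped with neither the suckling mice nor those of Day 30, while the 3 oldest ages overlapped with each other. From Day 30 on Elovl3 alone supplied between 27% and 30.3% of the summed FPKM of the 7 genes, on average.

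Elovl7, a further elongase of long acyl chains, was the lowest of the 7 after weaning. Its mice had 1.33, 1.15 and 0.878 FPKM at Day 1 and 0.0194, 0.0186 and 0.0155 FPKM at Day 45, the highest and lowest of the 12 ages, a 63.0-fold difference between means that rests on about 7 to 18 fragments per mouse at Days 30 to 60. It passed the filter (an age mean of 1 FPKM or more) only through Day 1, and Elovl3 only through the ages after weaning, so each had to differ between ages. The endothelial markers Stab2, Pecam1, Kdr, Cdh5 and Lyve1 also summed lower after weaning (9.61 to 27.9 FPKM) than in suckling mice (33.2 to 71.7 FPKM), as did the stellate markers. Medians of the biliary, erythroid, and leukocyte and macrophage sums were lower after weaning too, while those of the hepatocyte and brown adipose sums were not. Before suckling the endothelial median was 37.7 FPKM, below the 56.2 FPKM of suckling mice. The Elovl7 median was 0.745 FPKM before suckling and 0.367 FPKM in suckling mice. The part of these cells in the Elovl7 result was not tested.

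Each age was compared with Day 60, the reference age of the study, with limma on log2(FPKM + 1). All 7 genes differed from Day 60 at 1 age or more, against 90.7% of the 11149 genes tested. Elovl3 and Elovl7 passed the filter only through some ages, so their calls in this and the following comparisons are no independent support. Of the 77 pairs of a gene and an age, 34 passed an adjusted p of 0.05, 25 of them lower and 9 higher than at Day 60, against 39.6% of all such pairs over all genes (9.2% lower and 30.4% higher). Elovl3 was lower at every age up to Day 25 and Elovl5 at Days -2, 0, 1, 3, 5 and 20. Elovl7 gave 6 of the 9 higher values, from Day -2 to Day 10. Of the other higher values Fads2 gave those of Day 5 (log2 fold change 1.13, SE 0.29, limma adjusted p = 0.0014) and Day 10, and Elovl1 that of Day -2. The Fads2 value of Day 5 fell to 0.50 (limma adjusted p = 0.10) and the Elovl1 value to 0.12 (limma adjusted p = 0.50) when libraries were scaled to a common upper quartile. Under that scaling 33 values were lower and 10 higher than at Day 60, with gains such as Fads1 at Day 3 (-1.01, limma adjusted p = 0.00017) and Day 5 (-0.67, limma adjusted p = 0.0084), and others for Fads2 at Days 0, 1 and 25, Elovl1 at Days 1 and 30, Elovl5 at Day 10 and Elovl7 at Day 15. Elovl1 at Days 3 and 5, which did not pass as deposited, was then below Day 60. With a pseudocount of 0.1 Elovl7 was also higher than at Day 60 at Day 15 (0.96, limma adjusted p = 0.00059) and Day 20 (0.68, limma adjusted p = 0.019). Some of these calls rested on single mice. The Elovl5 value of Day 5 was lost without mouse 2 or 3 of Day 5 or mouse 3 of Day 60 (limma adjusted p = 0.074 to 0.18), the Elovl7 value of Day 10 without mouse 1 of Day 10 or mouse 2 or 3 of Day 60 (0.057 to 0.15), and the Elovl1 value of Day 10 without mouse 1 or 3 of Day 10 or of Day 60 (0.053 to 0.14). Without the 6 libraries with pancreatic or muscle RNA, the values of Elovl1 at Day 10 (-0.36, limma adjusted p = 0.098) and Day 20 (-0.57, limma adjusted p = 0.052) and of Elovl7 at Day 10 (0.22, limma adjusted p = 0.064) no longer passed. Calls were gained without mouse 3 of Day 60 for Fads2 at Days 3 and 25 (0.72 and 1.01) and for Elovl3 at Day 30 (-0.85), and without mouse 3 of Day 0 for Fads2 at Day 0 (-0.75).

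Whether suckling and the solid diet differed in these mRNAs was asked by setting Days 1 to 20 against Days 25 to 60. Elovl3, Elovl1, Elovl5 and Fads1 were lower in suckling livers, and Elovl2 and Elovl7 were higher, so that 6 of the 7 genes passed, against 79.7% of all genes tested. The 4 lower genes stand beside 11.7% of all genes and the 2 higher ones beside 68.1%, because the median change over all genes was 0.39 on the log2 scale. Elovl3 had the largest difference of the 7, with medians of 0.0645 FPKM over 18 suckling mice and 208.6 FPKM over 12 weaned mice and no overlap (log2 fold change -6.22, SE 0.10, limma adjusted p = 1.6e-28). It passed the filter only through the ages after weaning, so this p-value is no support beyond the levels themselves. Elovl1 was lower by less, with medians of 26.1 and 35.9 FPKM (log2 fold change -0.55, SE 0.08, limma adjusted p = 2.3e-07).

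Elovl5 had medians of 52.2 FPKM in suckling mice and 78.3 FPKM in weaned mice (log2 fold change -0.55, SE 0.14, limma adjusted p = 0.00070), and Fads1 had 133 and 175 FPKM (log2 fold change -0.40, SE 0.12, limma adjusted p = 0.0030). The groups overlapped for both. The higher level of Elovl2 in suckling mice (medians 87.0 and 76.8 FPKM, log2 fold change 0.46, SE 0.17, limma adjusted p = 0.014) was of the size of the median of all genes, and it became 0.05 (limma adjusted p = 0.78) with a common upper quartile, under which the median of all genes was 0.13. With libraries scaled to a common sum (TPM) the Elovl2 change was 0.40 and did not pass (limma adjusted p = 0.056), beside a median of 0.42. Fads2 did not pass (log2 fold change 0.22, SE 0.13, limma adjusted p = 0.13), with medians of 290.5 and 226 FPKM, but did so without mouse 3 of Day 30 (0.31, limma adjusted p = 0.028) or mouse 3 of Day 60 (0.30, limma adjusted p = 0.041). No other call among the 7 depended on a single mouse here, and none changed without the 6 libraries with pancreatic or muscle RNA. Marker sums of other cells differed in median between these periods too: the erythroid sum had medians of 19919 FPKM in suckling and 2013 FPKM in weaned mice, and the leukocyte and macrophage sum 117 FPKM (43.6 to 165) and 60.5 FPKM (44.2 to 104). Their part in these results was not tested.

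Against the 2 ages before suckling, suckling livers had more mRNA for the 4 polyunsaturated fatty acid enzymes and less for Elovl1 and Elovl7, so that 6 of 7 genes passed, against 67.8% of all genes tested. The 4 higher genes stand beside 27% of all genes, and the 2 lower ones beside 40.7%. For Elovl7 the lower level holds over the suckling ages together, not at each. Its mean at Day 1, 1.12 FPKM, was above those of Day 0 (0.85 FPKM) and Day -2 (0.533 FPKM). Elovl2 ranged from 9.07 to 27.9 FPKM over 6 mice before suckling and from 63.0 to 162 FPKM over 18 suckling mice (log2 fold change 2.47, SE 0.21, limma adjusted p = 2.6e-11). Elovl5 ranged from 6.26 to 20.7 FPKM and from 33.2 to 110 FPKM (log2 fold change 2.26, SE 0.18, limma adjusted p = 2.5e-12). Both were without overlap between the periods, and the share of all genes without overlap was not counted. The desaturases overlapped, with changes of 1.27 for Fads2 (SE 0.17, limma adjusted p = 1.6e-07) and 0.74 for Fads1 (SE 0.15, limma adjusted p = 7.0e-05). Leaving out the 6 libraries with pancreatic or muscle RNA leaves 1 mouse at Day 0. The changes were then 1.40 for Fads2, 0.85 for Fads1, 2.45 for Elovl2, 2.41 for Elovl5, -0.62 for Elovl1 and -0.30 for Elovl7. The 7 erythroid markers, led by globins, summed to 59422 to 183896 FPKM before suckling and to 2490 to 46853 FPKM in suckling mice. The hepatocyte markers ranged from 7765 to 47902 FPKM before suckling and from 36429 to 81999 FPKM in suckling mice. A shift in these cell types and a change per cell cannot be told apart.

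**Figure D2:**
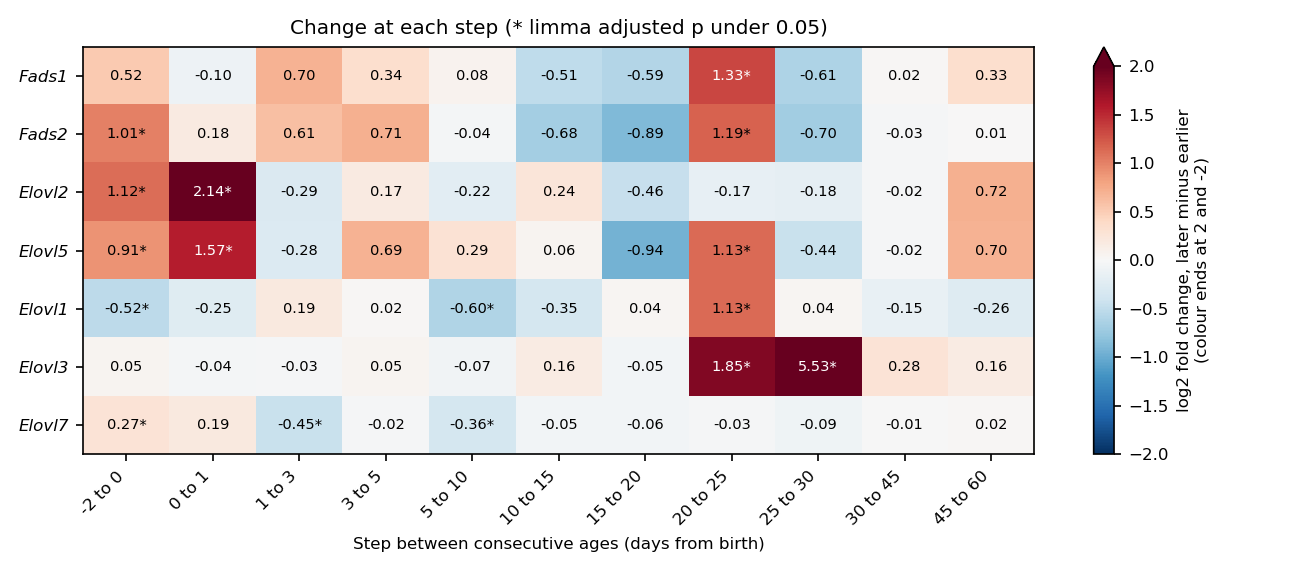
Log2 fold change, on the log2(FPKM + 1) scale, between each pair of consecutive ages (columns, in days from birth) for the 7 genes (rows), with red for a rise, blue for a fall, colours ending at 2 and -2, and an asterisk where the limma adjusted p is under 0.05. Rises gather at the first steps for Elovl2 and Elovl5 and at the step from Day 20 to Day 25 for 5 genes, with 5.53 for Elovl3 at the step from Day 25 to Day 30.

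Between consecutive ages, 12 rises and 4 falls passed among the 7 genes. From Day -2 to Day 0, Fads2, Elovl2, Elovl5 and Elovl7 rose and Elovl1 fell, 5 of 7, against 54.6% of all genes tested (13.1% rising and 41.4% falling). Elovl2 rose by 1.12 on the log2 scale (SE 0.37, limma adjusted p = 0.013) and Elovl5 by 0.91 (SE 0.30, limma adjusted p = 0.014). The Fads2 rise (1.01, SE 0.29, limma adjusted p = 0.0054) came in part from mouse 3 of Day 0, which also had a pancreatic marker sum of 3848 FPKM. That mouse had 275 FPKM of Fads2, and the other mice of Day 0 had 112 and 136, above every mouse of Day -2. Without mouse 3 of Day 0 the change was 0.63 and did not pass (limma adjusted p = 0.079). Without the 6 libraries with pancreatic or muscle RNA, which leaves 1 mouse at Day 0 whose spread is taken from the other ages, Fads2, Elovl2 and Elovl5 no longer passed (limma adjusted p = 0.13, 0.082 and 0.18). The Elovl5 rise was also lost without mouse 1 of Day 0 (limma adjusted p = 0.098) or mouse 2 of Day -2 (limma adjusted p = 0.0502), and the Elovl2 rise without mouse 2 of Day -2 (limma adjusted p = 0.0504). The Elovl1 fall (-0.52, SE 0.17, limma adjusted p = 0.012) was lost without mouse 1 or 2 of Day 0 (limma adjusted p = 0.071 and 0.078) and with a common upper quartile (-0.25, limma adjusted p = 0.20). Fads1 did not pass (0.52, SE 0.26, limma adjusted p = 0.090), but did so with a common upper quartile (0.78, limma adjusted p = 0.0036) and without mouse 1 of Day 30 (limma adjusted p = 0.0499).

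The first day of suckling brought the steepest rise of Elovl2, by 2.14 (SE 0.37, limma adjusted p = 7.2e-05), and of Elovl5, by 1.57 (SE 0.30, limma adjusted p = 0.00029). These were the 2 genes of the 7 that passed at this step, against 31.6% of all genes tested (23.7% rising), and both passed under every alternative that was run. The desaturases did not pass at this step, Fads1 differing by -0.10 and Fads2 by 0.18, and from Day 1 to Day 3 Fads1 (0.70, limma adjusted p = 0.080) passed only without mouse 1 of Day 30 (limma adjusted p = 0.036). Elovl7 (0.19, limma adjusted p = 0.051) passed without mouse 1 or 2 of Day -2, mouse 2 of Day 0, mouse 3 of Day 1, mouse 2 of Day 5 or mouse 1 of Day 10 (limma adjusted p = 0.0084 to 0.048). It fell from Day 1 to Day 3 by 0.45 (SE 0.08, limma adjusted p = 0.00016), against 11.3% of all genes tested (3.09% falling). From Day 5 to Day 10 Elovl1 (-0.60, SE 0.17, limma adjusted p = 0.0068) and Elovl7 (-0.36, SE 0.08, limma adjusted p = 0.00051) fell, against 36.3% of all genes tested (34.4% falling). The Elovl1 change was -0.16 (limma adjusted p = 0.63) with a common upper quartile.

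Weaning lay between Day 20 and Day 25, and at this step 5 of the 7 genes rose, against 7.19% of all genes tested in either direction and 3.94% in this direction. Among these 5 genes, Elovl3 passed the filter only through the ages from Day 25 on. Fads1 went from 110, 74.4 and 81.5 FPKM to 223, 183 and 265 FPKM (log2 fold change 1.33, SE 0.26, limma adjusted p = 0.00077). Fads2 went from 161, 133 and 156 FPKM to 343, 308 and 376 FPKM (1.19, SE 0.29, limma adjusted p = 0.0099). Every mouse of Day 25 was above every mouse of Day 20 for both desaturases. Elovl5 went from 48.6, 38.1 and 33.2 FPKM to 95.3, 70.9 and 99.6 FPKM (1.13, SE 0.30, limma adjusted p = 0.018), and Elovl1 from 21.6, 15.2 and 16.6 FPKM to 48.4, 38.0 and 33.9 FPKM (1.13, SE 0.17, limma adjusted p = 2.8e-05). Elovl3 rose from 0.0791, 0.0995 and 0.138 FPKM to between 2.37 and 3.59 FPKM, 28.7-fold in the means (1.85 on the log2(FPKM + 1) scale, which understates a low gene, SE 0.22, limma adjusted p = 4.8e-07).

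Elovl2 was the one of the 4 polyunsaturated fatty acid enzymes that did not pass at weaning, with 76.5, 87.0 and 68.2 FPKM at Day 20 and 85.1, 44.5 and 83.2 FPKM at Day 25 (-0.17, SE 0.37, limma adjusted p = 0.87). Elovl7 was at 0.117 FPKM or less at both ages. Leaving out each of the 36 mice in turn kept Fads1, Elovl1 and Elovl3 past the threshold in all 36 fits and Fads2 in all but the fit without mouse 2 of Day 20 (1.10, limma adjusted p = 0.053). The Elovl5 rise was lost in 4 fits, those without mouse 2 or 3 of Day 20 or mouse 1 or 3 of Day 25 (1.01 to 1.11, limma adjusted p = 0.062 to 0.097). Without the 6 libraries with pancreatic or muscle RNA all 5 rises remained past the threshold, at 1.21 for Fads1, 1.10 for Fads2, 1.11 for Elovl5, 1.03 for Elovl1 and 1.85 for Elovl3. The hepatocyte marker sum was 60478 to 71074 FPKM at Day 20 and 60501 to 64112 FPKM at Day 25. Other cell types' marker sums were lower at Day 25 without overlap: endothelial 33.2 to 42.6 FPKM at Day 20 and 13.5 to 27.9 FPKM at Day 25, stellate 24.1 to 30.7 and 11.2 to 20.1 FPKM, and erythroid 3423 to 4573 and 2392 to 2589 FPKM. Their part in the rises was not tested. From Day 25 to Day 30 Elovl3 rose again, by 5.53 (SE 0.22, limma adjusted p = 3.5e-17), and no other member passed, against 1.64% of all genes tested (0.834% rising).

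Elovl3 is also a gene of brown fat and skin, so markers of those tissues were read in the same livers. Over the 3 mice of Day 30 the brown adipose markers Ucp1, Cidea, Cox8b and Cox7a1 summed to 2.93 to 5.38 FPKM, the adipose markers (with Plin1 and Lep listed at 0) to 0.225 to 0.271 FPKM and the skin markers (with Krt5 listed at 0) to 0.119 to 0.367 FPKM, beside 126 to 234 FPKM of Elovl3. Over all 12 weaned mice the brown adipose sum reached 9.14 FPKM, the adipose sum 5.11 FPKM and the skin sum 0.596 FPKM. Elovl3 was at 2.37 to 400 FPKM in these mice. At Day 20 the brown adipose sum was 3.19 to 6.41 FPKM, beside 0.138 FPKM or less of Elovl3. The part of these tissues in the Elovl3 level was not tested.

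The stretches of 250 bases before the annotated starts (RefSeq, GRCm38.p6, gene strand, a build other than that of the expression table) are shown for 3 of the genes that rose at weaning and for Elovl2, which did not pass. Capitals mark matches to the CCAAT box (CCAAT, or ATTGG on the opposite strand) and to the E-box CACGTG. They are chr19:10101504-10101753 (minus strand) for Fads2, chr9:77917115-77917364 (plus strand) for Elovl5, chr4:118427843-118428092 (plus strand, first of 2 starts) for Elovl1 and chr13:41220404-41220653 (minus strand, first of 2 starts) for Elovl2.
Fads2: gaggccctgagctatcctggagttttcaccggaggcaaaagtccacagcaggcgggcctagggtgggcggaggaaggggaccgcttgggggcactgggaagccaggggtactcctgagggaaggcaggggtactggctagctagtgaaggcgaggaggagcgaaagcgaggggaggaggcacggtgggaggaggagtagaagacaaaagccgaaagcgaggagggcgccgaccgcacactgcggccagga
Elovl5: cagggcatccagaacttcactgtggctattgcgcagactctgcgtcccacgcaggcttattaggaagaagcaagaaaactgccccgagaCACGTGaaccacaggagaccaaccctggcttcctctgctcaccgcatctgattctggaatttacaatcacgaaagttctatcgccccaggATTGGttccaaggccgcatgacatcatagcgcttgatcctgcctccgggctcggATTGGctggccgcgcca
Elovl1: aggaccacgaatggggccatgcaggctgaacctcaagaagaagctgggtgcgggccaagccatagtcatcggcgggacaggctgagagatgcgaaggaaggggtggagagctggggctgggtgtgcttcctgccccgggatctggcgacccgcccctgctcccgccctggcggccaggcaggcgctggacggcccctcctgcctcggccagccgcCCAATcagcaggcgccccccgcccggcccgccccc
Elovl2: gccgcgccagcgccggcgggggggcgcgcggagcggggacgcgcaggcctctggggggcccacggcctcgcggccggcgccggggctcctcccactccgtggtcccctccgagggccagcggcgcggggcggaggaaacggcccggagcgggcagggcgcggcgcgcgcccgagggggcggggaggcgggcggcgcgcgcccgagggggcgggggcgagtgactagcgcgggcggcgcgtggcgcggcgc

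Elovl5 held 2 CCAAT boxes, 71 and 17 bases before the start, and 1 CACGTG 161 bases before it. Elovl1 held 1 CCAAT box, 35 bases before its first start. None of the letters searched was in these windows of Fads2 or Elovl2, nor in that of Elovl7. On either strand, 34.5% of 27025 mouse promoters of the same length hold CCAAT and 6.05% hold CACGTG. The sterol element TCACNCCAC, held by 1.04% of promoters, was in none of the windows of the 5 genes with an entry (Fads1 and Elovl3 had none). The windows differed in base composition, with G and C making up 87.2% of that of Elovl2, 72.0% of Elovl1, 64.8% of Fads2 and 55.6% of Elovl5.

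The balance between paired enzymes was read as a ratio of FPKM in the same mouse, in which any scaling of the whole library cancels. The ratio of Fads2 to Fads1 was 1.21, 1.32 and 1.2 at Day -2, 2.58, 2.77 and 2.33 at Day 5 and 1.08, 1.08 and 1.23 at Day 60. Its mean was highest at Day 5 (2.56 ± 0.220, SD, n = 3) and lowest at Day 60 (1.13 ± 0.0861), and the mice of Day 20 (1.72 ± 0.236) and Day 25 (1.55 ± 0.133) overlapped. Over age means, 6 suckling ages against 4 after weaning, it was higher in suckling mice by 0.62 on the log2 scale, with every suckling age above every later one (two-sided exact permutation test, p = 0.0095, the smallest that the 210 splits allow, and 0.0095 adjusted over the 2 ratios).

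The ratio of Elovl2 to Elovl5 behaved differently. It was 3.16, 2.34 and 2.23 at Day 1, 1.57, 2.28 and 2.06 at Day 20 and 0.894, 0.628 and 0.836 at Day 25. All mice of Days 1 to 20 had more Elovl2 than Elovl5 mRNA per length, and at the ages after weaning the means were between 0.786 and 0.956. Between Day 20 (1.97 ± 0.363, SD, n = 3) and Day 25 (0.786 ± 0.140) the mice did not overlap. Over age means the ratio was higher in suckling mice by 1.01 on the log2 scale (two-sided exact permutation test over the same splits, p = 0.0095, adjusted 0.0095). Both tests rest on the same grouping of ages, which are consecutive points of one course. The mean ratio of Fads2 to Fads1 fell from each age to the next after Day 5, so its test cannot tell weaning from a steady decline.

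**Figure D3:**
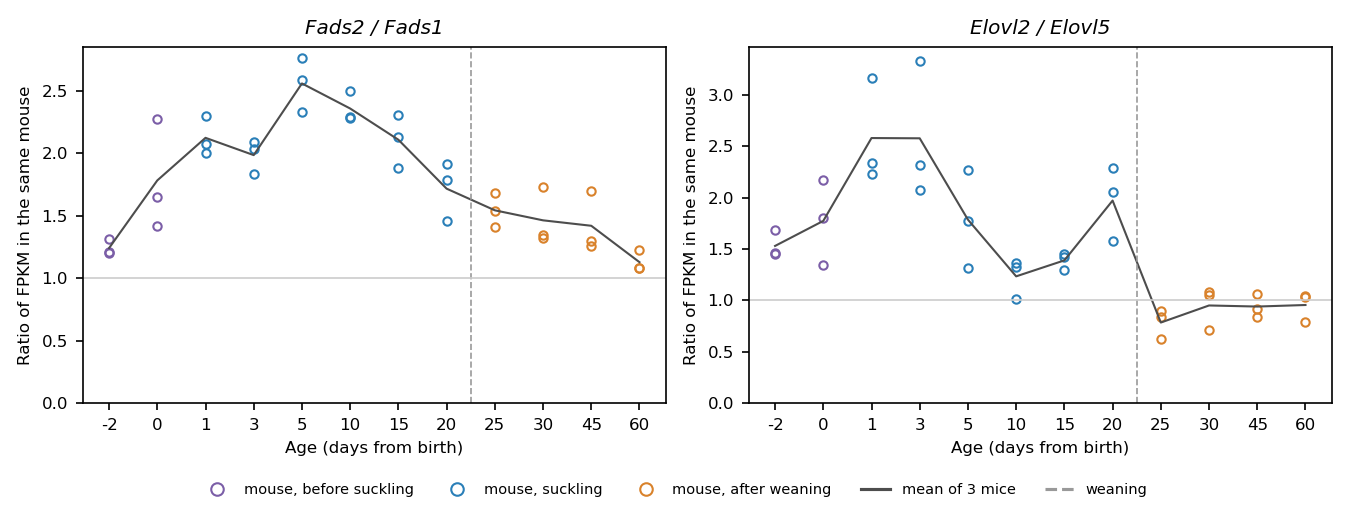
Ratio of FPKM in the same mouse (open circles, coloured by period; line, mean of 3 mice) against age in days from birth, for Fads2 over Fads1 (left) and Elovl2 over Elovl5 (right), with linear axes from 0 and a grey line at 1. The left ratio peaks at 2.56 at Day 5 and is lower at each later age, and the right one goes from 1.97 at Day 20 to 0.786 at Day 25.

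Summed over Fads1, Fads2, Elovl2 and Elovl5, FPKM was 181, 161 and 146 in the mice of Day -2, 980, 881 and 599 at Day 10, 396, 332 and 339 at Day 20 and 746, 606 and 824 at Day 25. Fads2 was the largest part of the 7 genes at every age up to Day 30, from 29.5% to 54.5% of their summed FPKM, and at Days 45 and 60 its part (27.9% and 23.4%) was below that of Elovl3 (30.3% at both ages).

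Within an age, mice varied together in the desaturases. The 3 mice stood in the same order for Fads1 and Fads2 at 11 of 12 ages, and the lowest mouse was the same at all 12. Among the 11148 other genes tested the median gene shared the order of Fads1 at 2 ages, and 4 genes did so at 11 ages, the highest number reached, of which Fads2 was one (the others, Gpr107, Rfx1 and Sgsm2, are named after their values were seen). Elovl2 and Elovl5 shared their order at 7 ages, which 17.1% of the other genes reached or exceeded with Elovl2. These counts are descriptions of libraries that share depth and preparation. The widest example was Day 30, where mouse 1 had 87.7 FPKM of Fads1 (the others 174 and 197), 118 of Fads2 (230 and 340), 29.3 of Elovl2 (95.1 and 77.3) and 40.9 of Elovl5 (87.6 and 73.4), but not the lowest Elovl3 (208, against 126 and 234). The pancreatic marker sum of that mouse was 9.59 FPKM.

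**Figure D4:**
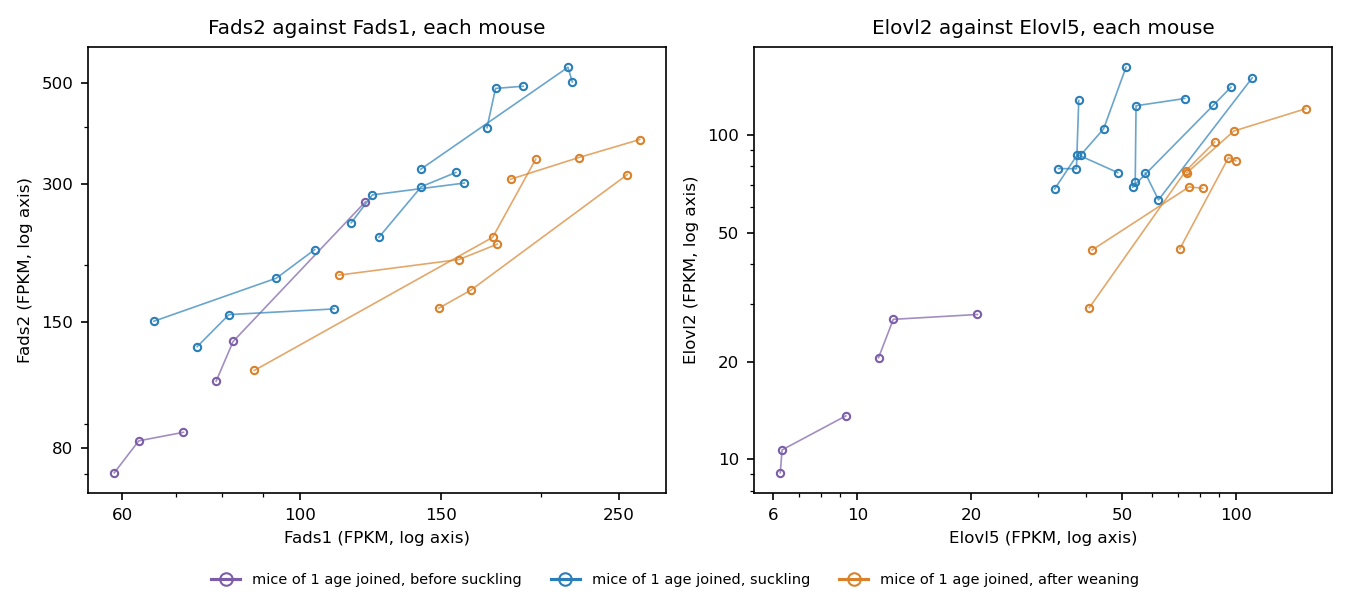
Each mouse (open circle) by its Fads1 and Fads2 mRNA (left) and by its Elovl5 and Elovl2 mRNA (right), in FPKM on logarithmic axes, with the 3 mice of an age joined and coloured by period. On the left the lines of an age run upwards together. The mean ratio of Fads2 to Fads1 runs from 2.56 at Day 5, the highest, to 1.13 at Day 60, the lowest. Mice of the suckling and weaned periods overlap in this ratio, with 1.46 in mouse 1 of Day 20 and 1.68 in mouse 2 of Day 25. On the right the mice before suckling are set apart at 27.9 FPKM of Elovl2 or less.

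Other genes of the pathway were read from 6 lists by function, with genes named as the highest and lowest that passed between suckling and weaned mice. The counts of each list stand beside 68.1% of all genes tested that were higher in suckling mice and 11.7% that were lower. Of the 7 tested among 10 other elongases and desaturases, 2 were higher and 4 lower in suckling mice. Scd1, stearoyl-CoA desaturase, had a median of 2.16 FPKM in suckling and 529 FPKM in weaned mice (log2 fold change -7.27, SE 0.16, limma adjusted p = 2.1e-25), and Fads3 had 1.97 and 1.04 FPKM (0.51, SE 0.08, limma adjusted p = 2.3e-06). Of the 6 partners of the elongation cycle 4 were higher, near the share of all genes, and 2 lower. Hsd17b12, the ketoacyl-CoA reductase of the cycle, rose at the step of weaning, with 18.3 ± 1.21 FPKM at Day 20 and 44.1 ± 3.55 FPKM at Day 25 (SD, n = 3; log2 fold change 1.22, SE 0.15, limma adjusted p = 1.2e-06), while Ptplad1, a dehydratase, was higher in suckling mice (0.61, SE 0.09).

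Electron carriers for desaturation were tested for 5 of 6 genes, 2 higher and 3 lower in suckling mice. Cyb5b, a cytochrome b5 of the outer mitochondrial membrane, had a median of 13.1 FPKM in suckling and 57.4 FPKM in weaned mice (-1.92, SE 0.11), and Cyb5r1 had 3.5 and 2.41 FPKM (0.37, SE 0.05). Of the 12 tested of 13 genes for activation and peroxisomal shortening 1 was higher, Abcd2, a peroxisomal transporter of very long acyl-CoAs (5.71 and 0.564 FPKM; 2.01, SE 0.18), and 7 were lower, led by Scp2, which carries the peroxisomal thiolase SCPx (56.8 and 178 FPKM; -1.62, SE 0.14). Of 8 tested acyltransferases for phospholipids 6 were higher and 0 lower in limma, with the same counts at an unadjusted p under 0.05; this share is near the 68.1% of all genes that were higher. Lpcat1 had 3.90 and 0.510 FPKM (1.63, SE 0.07), and the smallest rise that passed was that of Agpat3 (0.29, SE 0.07).

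Of 9 regulators 3 were higher and 4 lower in suckling mice. Insig1, which holds SREBP precursors in the endoplasmic reticulum and is itself an SREBP target, had medians of 5.67 and 31.4 FPKM (-2.07, SE 0.19), and Ppara, the fatty acid receptor, had 20.0 and 11.6 FPKM (0.93, SE 0.17). The lists' median log2 changes were -0.42, 0.35, -0.50, -0.31, 0.41 and -0.04 in the order given, beside 0.39 for all genes. At the step from Day 20 to Day 25, at which 3.94% of all genes rose, 2 of 7, 3 of 6, 2 of 5, 2 of 12, 0 of 8 and 1 of 9 tested list genes passed as rises in limma, and 0 passed as falls. At an unadjusted limma p under 0.05 the rises were 3, 3, 3, 5, 1 and 2, beside 8.61% of all genes, and 1 gene of activation and peroxisomal shortening and 2 of the phospholipid genes fell, beside 10.4% of all genes.

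Among the 7 genes, the courses over the 12 age means were most alike for Fads1 and Fads2 (Pearson r = 0.85), Elovl2 and Elovl5 (0.85) and Fads1 and Elovl5 (0.83). Outside them, the genes with the most similar courses on the log2(FPKM + 1) scale were A230050P20Rik for Fads1 (0.91), Rabggta for Fads2 (0.92), N6amt2 for Elovl1 (0.97), Sdc1 for Elovl5 (0.96) and Mapk13 for Elovl7 (0.99). For Elovl3 they were Mup17, Gm5631 and Mup8 (0.99 to 1.00), of which the Mup genes, major urinary proteins, are members of a family of near-identical copies whose reads may be split uncertainly. These are descriptions over 12 ages that share libraries and depth.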

How the data were processed

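Livers were collected from 3 male mice at each of 12 ages. The authors made polyadenylated RNA libraries with paired reads of 100 bases, mapped them with TopHat (1.2.0 per the submitters' processing notes) to NCBI37/mm9 and estimated abundance with Cufflinks (1.0.3) against Ensembl annotation. They deposited FPKM values, 1 per gene symbol and mouse on a linear scale, without read counts, so the depth could only be estimated and no count model was used. FPKM is a share of a library, and no scaling between libraries is named, so abundant transcripts of other cells lower all others.

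Values were taken as log2(FPKM + 1), with the pseudocount of 1 understating changes of low genes. The 11149 genes whose mean reached 1 FPKM at some age, all 7 members included, were tested with limma 3.58.1 in R 4.3.3, with 1 mean per age over all 36 mice, no covariates and variances that follow mean expression. P-values were adjusted after Benjamini and Hochberg over all genes of a comparison, and over all genes and 11 ages for a difference from Day 60 at any age. Each age was set against Day 60 and against the age before it, Days 1 to 20 against Days 25 to 60, and Days 1 to 20 against Days -2 and 0. Ratios of genes in the same mouse were tested over age means by exact permutation, two-sided. Overlap of mice between ages or periods was read for the members only, without a share over all genes. Fits were tested on simulated data. Other steps used Python 3.11.15 (numpy 2.4.6, scipy 1.17.1, pandas 2.3.3) and figures matplotlib 3.10.9.

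Alternatives were a pseudocount of 0.1, no filter or one at 5 FPKM, a common upper quartile, a sum of 1000000 (TPM), no variance trend, a replicate block, Dunnett's comparison with Day 60 and each mouse left out in turn. Leaving out 6 libraries with pancreatic or muscle RNA was chosen after seeing the data. The members and all gene lists were chosen with earlier results of these data known. Named genes are the members, the genes with the most similar course over the 12 age means (that of Elovl2 is not reported here) and, from each list, the highest and lowest gene that passed between suckling and weaned mice. Positions are from GENCODE M1 (mm9) and promoter sequences from RefSeq (GRCm38.p6).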

Additional observations from a re-analysis of the deposited data

How the results depend on the processing

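With a filter at 5 FPKM, under which Elovl7 is not tested, the higher values against Day 60 were 3 in place of 9, the genes higher in suckling than in weaned mice 1 in place of 2, those lower in suckling mice than before suckling 1 in place of 2, and the falls between consecutive ages 2 in place of 4. A common upper quartile also gave 1 gene higher in suckling than in weaned mice and 2 falls, and TPM scaling gave 1 such gene. Under both scalings the gene lost was Elovl2 (0.05, limma adjusted p = 0.78, and 0.40, limma adjusted p = 0.056). The falls lost with the upper quartile were those of Elovl1. Why these calls changed was not tested. With the upper quartile, Elovl1 at Days 3 and 5 turned from above Day 60 to below it (-0.47, limma adjusted p = 0.012, and -0.45, limma adjusted p = 0.016). Leaving out each mouse in turn gave 7 genes differing from Day 60 in every fit, 8 to 10 higher and 24 to 26 lower values against Day 60, 10 to 14 rises and 3 to 4 falls between consecutive ages, 2 to 3 genes higher and 4 lower in suckling than in weaned mice, and 4 higher and 2 lower than before suckling. The ratio differences ranged from 0.603 to 0.657 for Fads2 to Fads1 and from 0.964 to 1.04 for Elovl2 to Elovl5. Without the 6 libraries with pancreatic or muscle RNA there were 9 rises, and 8 higher and 23 lower values against Day 60. Dunnett's comparison with Day 60 called Fads1 at 4 ages, Fads2 at 3, Elovl1 at 3, Elovl2 at 2, Elovl3 at 9, Elovl5 at 5 and Elovl7 at 6.

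The replicate numbers mark different animals at each age. Same-numbered mice of different ages deviated together only weakly (median correlation 0.126 over 198 pairs of mice). Differently numbered mice had a median of -0.048 over 396 pairs. The correlation exceeded 0.1 in 52.5% of the same-numbered and 37.1% of the differently numbered pairs. A replicate block changed 1 of 168 calls on single genes, the Elovl7 rise from Day 0 to Day 1 (0.19, limma adjusted p = 0.037). Of these calls the pseudocount of 0.1 changed 2, no filter 1, no variance trend 0, TPM scaling 2 and the upper quartile 17. Depth limits Elovl3 before weaning and Elovl7 after it, where a few fragments set each value.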
